A study of Mus musculus with 4 samples.

Results

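The genes described here were 36 genes of endoplasmic reticulum (ER) protein folding and stress, taken by symbol from a table of counts for 24421 gene symbols. They were compared between DPPIV+ and DPPIV- fibro/adipogenic progenitors (FAPs), the mesenchymal stromal cells of skeletal muscle that make connective tissue and extracellular matrix. The 36 genes comprised 11 chaperones and co-factors of the ER lumen, 5 protein disulfide isomerases, 2 collagen chaperones, 8 stress sensors and transcription factors, 5 genes of ER-associated degradation, 2 of protein translocation and 3 of vesicle export. The question put to the counts was whether FAPs with and without surface DPPIV, a membrane peptidase, differed in this machinery.

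Both groups came from the same 2 adult wild-type mice, so each mouse gave 1 DPPIV- and 1 DPPIV+ library of bulk mRNA sequencing. All animals had received 3 weeks of CSF1R inhibition, which depletes macrophages, followed by 3 days of regular diet, and no untreated FAPs were compared here. Live cells (propidium iodide negative) without CD31 and CD45 and with Sca1 were sorted from digested muscle and divided by DPPIV. The labels name the tibialis anterior as the source, whereas the protocol describes muscle of both hindlimbs. Reads on genes numbered 18240110 to 20879405 per library, so that 3 reads, the floor used here for detection, stood for 0.143 to 0.166 CPM (counts per 1000000 reads on genes). The sort was visible in Dpp4 itself, whose level was 89.6 and 39.6 CPM in DPPIV- and 727 and 574 CPM in DPPIV+ FAPs, with mouse 1 given before mouse 2 here and in all pairs of values that follow. The FAP markers Pdgfra, Dcn, Cd34 and Ly6a were abundant in all 4 libraries.

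Secreted and membrane proteins enter the ER through the translocon, fold there with the help of chaperones such as BiP (the product of Hspa5), gain disulfide bonds from isomerases and leave in COPII vesicles. When unfolded protein accumulates, 3 membrane sensors, IRE1 (Ern1), PERK (Eif2ak3) and ATF6 (Atf6), start the unfolded protein response, whose transcription factors XBP1, ATF4 and cleaved ATF6 raise chaperone and degradation genes. Cells that secrete much collagen, as FAPs do, also depend on chaperones dedicated to procollagen.

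Several of these genes carry a shared promoter element, the ER stress element (ERSE), to which NF-Y and ATF6 or XBP1 are known to bind. The ERSE was searched as CCAAT followed after any 9 bases by CCACG, on both strands of the RefSeq promoter windows (GRCm38.p6, 250 bases before to 50 after each start), in which 31 of the 36 genes had an entry. Hyou1, Manf, Fkbp10, Atf6 and Creb3l1 had none. ERSE letters were present for 9 of the 31 (29.0%), compared with 37 of 27025 genes in the table (0.137%). The genes were taken for roles in ER folding and stress, where this element is known, so both shares are a description with no test. The 9 were Hspa5, Hsp90b1, Calr, Canx, Dnajc3, Creld2, Pdia6, Syvn1 and Derl3. The sequences below show 7 of them, read 5′ to 3′ on the strand of the gene, with the ERSE in capitals. In Calr and Creld2 the element runs in the opposite orientation and is read as its reverse complement. Hsp90b1 held a further ERSE in the opposite orientation, 107 to 89 bases before the RefSeq start. It is not shown, and its window overlapped an annotated Hsp90b1 exon. The Hspa5 site lay at chr2:34772025-34772043 (+ strand), 65 to 47 bases before the RefSeq start and inside an exon of a longer Hspa5 transcript in GENCODE M21, and is given alone. No annotated exon overlapped the other windows, which were Hsp90b1 at chr10:86705608-86705686 (-), Calr at chr8:84847045-84847123 (-), Canx at chr11:50325770-50325848 (-), Dnajc3 at chr14:118937797-118937875 (+), Creld2 at chr15:88819490-88819568 (+) and Pdia6 at chr12:17266461-17266539 (+).
Hspa5: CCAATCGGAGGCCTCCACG
Hsp90b1: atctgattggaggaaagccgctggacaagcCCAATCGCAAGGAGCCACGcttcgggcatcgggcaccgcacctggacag
Calr: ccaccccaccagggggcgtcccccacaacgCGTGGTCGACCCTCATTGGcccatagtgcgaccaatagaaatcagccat
Canx: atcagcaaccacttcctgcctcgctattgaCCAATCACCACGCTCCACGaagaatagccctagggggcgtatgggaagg
Dnajc3: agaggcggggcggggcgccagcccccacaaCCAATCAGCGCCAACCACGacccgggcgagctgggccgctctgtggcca
Creld2: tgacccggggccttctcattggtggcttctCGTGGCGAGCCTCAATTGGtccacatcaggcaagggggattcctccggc
Pdia6: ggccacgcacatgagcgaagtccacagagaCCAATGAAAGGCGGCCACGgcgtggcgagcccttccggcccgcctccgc

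With CCANG in place of CCACG, which includes every ERSE, Sel1l joined the list, giving 10 of 31 (32.3%) and 0.366% of all genes. ERSE-II, ATTGG and CCACG separated by any 1 base, added to the search after the windows had been read, was found for Dnajb11 and Herpud1 (6.45%, compared with 0.0444% of all genes). The ATF4 core TTGCATCA was found for Herpud1 alone (3.23%, compared with 1.03%). The core TGACGTGG of the unfolded protein response element, whose reverse complement holds the CCACG of the ERSE, was found for Txndc5, Sec23a and Sec24d (9.68%, compared with 0.714%), and TGACGTCA, the cyclic AMP response element, for 0 of 31 (compared with 2.03%). Herpud1 and Sdf2l1 are shown because their levels differed between the cell types. The Herpud1 windows lay at chr8:94386287-94386354 (+), with the ATF4 core in capitals, and chr8:94386347-94386417 (+), with ERSE-II in capitals. For Sdf2l1 the 250 bases before the start, chr16:17132384-17132633 (-), are shown with each CCAAT and CCACG box on either strand in capitals. There were 3 of each, at spacings that did not make an ERSE.
Herpud1, ATF4 core: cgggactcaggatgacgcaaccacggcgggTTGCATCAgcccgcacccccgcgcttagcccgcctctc
Herpud1, ERSE-II: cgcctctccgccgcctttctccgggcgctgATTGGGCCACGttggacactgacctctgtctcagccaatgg
Sdf2l1: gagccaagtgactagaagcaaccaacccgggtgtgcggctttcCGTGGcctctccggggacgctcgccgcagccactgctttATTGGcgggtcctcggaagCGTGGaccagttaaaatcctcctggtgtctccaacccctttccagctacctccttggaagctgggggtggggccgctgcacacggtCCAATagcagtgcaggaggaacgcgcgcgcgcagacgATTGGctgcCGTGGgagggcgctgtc

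Most of the ER folding machinery stood at near-equal levels in DPPIV+ and DPPIV- FAPs. Of the 36 genes, 35 passed the filter of 2 CPM in at least 2 libraries and were tested, and Derl3 did not pass. In edgeR's quasi-likelihood test with mouse in the model and Benjamini-Hochberg adjustment over 11588 genes, 3 genes were higher in DPPIV+ FAPs (Sdf2l1, Hyou1 and Edem1), 4 were lower (Fkbp10, Ddit3, Herpud1 and Creb3l2) and 28 did not pass the threshold of 0.05. These 7 calls were 20.0% of the genes tested, beside 33.0% of all genes tested (15.9% higher and 17.2% lower) and 37.8% of the 6291 genes at least as abundant as Ddit3, the least abundant of the 35. The median log2 fold change (DPPIV+ over DPPIV-) was 0.01 (-0.03 with upper-quartile scaling), beside -0.00 over all genes, and the median size of the change was 0.08, beside 0.16 over all genes and 0.13 over the 6291. Changes under 0.5 in size on the log2 scale made up 33 of 35 (94.3%), beside 82.0% of all genes. The 28 uncalled genes lay between -0.16 and 0.14, and their 95% intervals reached no further than -0.29 and 0.28. With bulk libraries, a lower level in a group may stand for fewer cells with the transcript or for less of it per cell, which cannot be told apart. With DESeq2, 2 genes were higher (Sdf2l1 and Hyou1, beside 7.97% of all genes) and 1 was lower (Fkbp10, beside 8.59%), so that 3 of the 7 calls remained, beside 16.6% of all genes. Tested against a 1.5-fold change with edgeR, 0 of the 35 passed, also at an unadjusted p under 0.05, beside 9.42% of all genes.

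**Figure D1:**
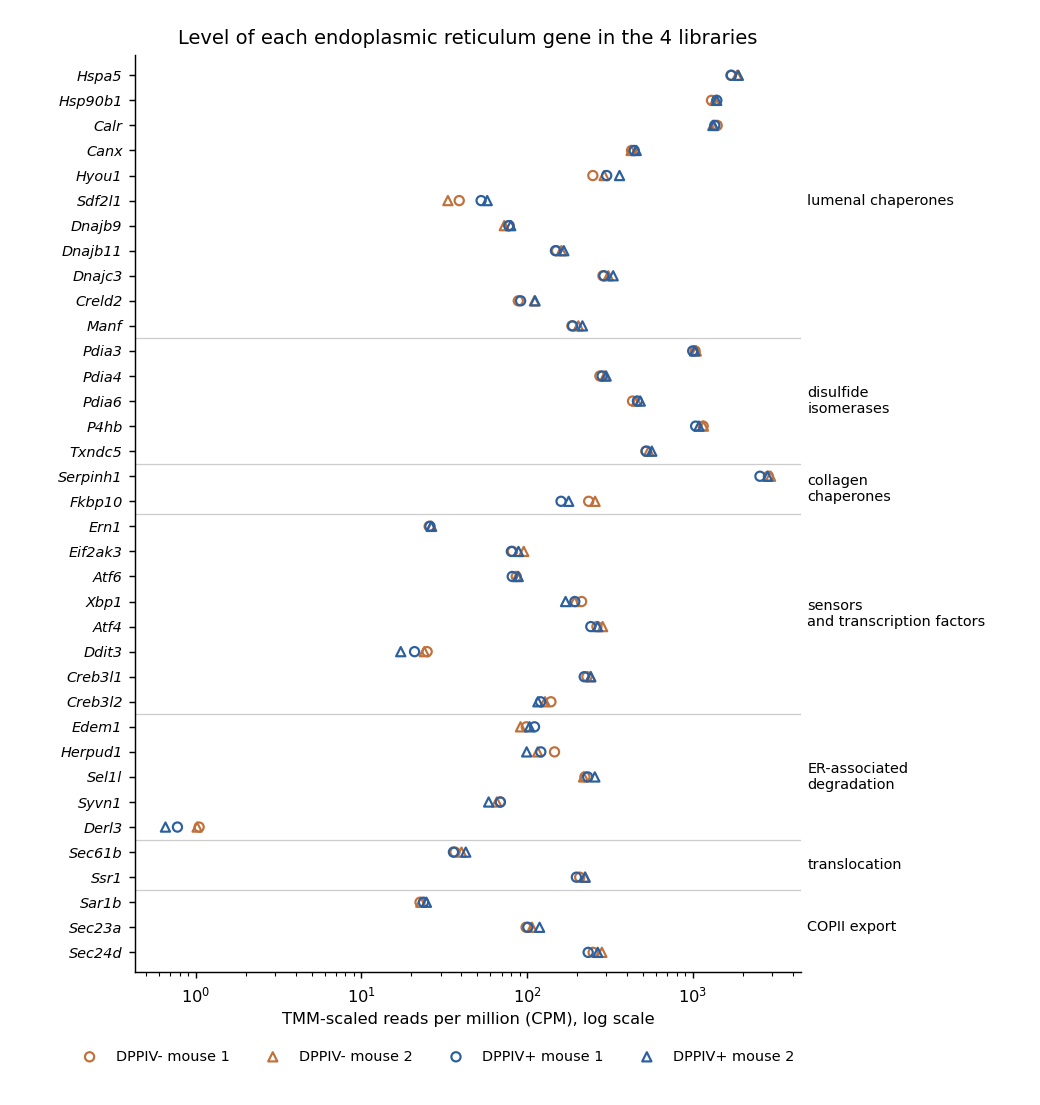
Level of the 36 genes in each library, in TMM-scaled CPM on a log axis, with circles for mouse 1, triangles for mouse 2, brown for DPPIV- and blue for DPPIV+ FAPs. Levels ran from 2933 CPM for Serpinh1 down to 0.657 CPM for Derl3, and the 4 symbols of most genes lie on top of each other.

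The summed level of the 36 genes was 14578 and 15036 CPM in DPPIV- FAPs and 14130 and 15012 CPM in DPPIV+ FAPs. The ranges of the cell types overlapped, with log2 ratios of -0.05 in mouse 1 and -0.00 in mouse 2. Between 1.40% and 1.54% of all reads on genes fell on these genes. Per kilobase of transcript, which allows genes to be compared, the mean level over the 4 libraries was highest for Serpinh1 (1223 CPM per kilobase), Calr (617), Hspa5 (484), Hsp90b1 (421), P4hb (387) and Pdia3 (369). The sensors were far lower, at 19.1 CPM per kilobase for Eif2ak3, 11.8 for Atf6 and 3.76 for Ern1.

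Among the lumenal chaperones, Sdf2l1 and Hyou1 were higher in DPPIV+ FAPs and the other 9 did not pass the threshold. Sdf2l1 encodes a small lumenal partner of BiP and its J-domain co-chaperones. Its level was 38.9 and 33.2 CPM in DPPIV- and 52.7 and 57.3 CPM in DPPIV+ FAPs. Both DPPIV+ libraries lay above both DPPIV- libraries, and the fold change was 1.53 (log2 0.61, SE 0.076, adjusted p = 1.46e-14 with edgeR). The log2 ratio was 0.44 in mouse 1 and 0.79 in mouse 2. Both lay outside the 95% interval of 0.46 to 0.76, whose width edgeR took from genes of like abundance. The adjusted p of Sdf2l1 was 0.000607 with DESeq2 and 0.00521 with edgeR without mouse in the model. Hyou1, which encodes the large HSP70-like protein that exchanges nucleotide on BiP, was at 249 and 291 CPM in DPPIV- and 301 and 360.1 CPM in DPPIV+ FAPs. The groups did not overlap, although DPPIV- FAPs of mouse 2 came close to DPPIV+ FAPs of mouse 1, and Hyou1 was also higher in mouse 2 than in mouse 1. Its fold change was 1.22 (log2 0.29, SE 0.067, edgeR adjusted p = 8.04e-05), and without mouse in the model its adjusted p was 0.151.

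BiP itself was level. Hspa5 was measured at 1692 and 1844 CPM in DPPIV- and 1702 and 1875 CPM in DPPIV+ FAPs, so that within each cell type mouse 2 was higher and the groups overlapped. The log2 fold change was 0.02 (SE 0.073, edgeR adjusted p = 0.908), with a 95% interval from -0.13 to 0.16. Hsp90b1, the lumenal HSP90, stood at 1291 and 1352 CPM in DPPIV- and 1391 and 1388 CPM in DPPIV+ FAPs, a gap that did not pass the test (log2 0.07, edgeR adjusted p = 0.505). The lectin chaperones calreticulin (Calr, log2 -0.02) and calnexin (Canx, 0.08), the J-domain proteins Dnajb9 (0.06), Dnajb11 (0.01) and Dnajc3 (0.06), and the stress-induced Creld2 (0.03) and Manf (0.05) had adjusted p-values between 0.439 and 0.913. The summed level of the 11 chaperones was 5882 and 6111 CPM in DPPIV- and 6033 and 6365 CPM in DPPIV+ FAPs, with log2 ratios of 0.04 and 0.06.

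None of the 5 disulfide isomerases passed the test in edgeR, and the count was 0 also at an unadjusted p under 0.05 and with DESeq2. These enzymes form and rearrange disulfide bonds, and P4hb is in addition a subunit of collagen prolyl 4-hydroxylase. P4hb was at 1151 and 1155 CPM in DPPIV- and 1037 and 1085 CPM in DPPIV+ FAPs, which did not overlap (log2 -0.12, 95% interval -0.26 to 0.02, edgeR adjusted p = 0.20). Pdia6 had the highest fold change of the 5, at 431 and 456 CPM in DPPIV- and 462 and 480.2 CPM in DPPIV+ FAPs (log2 0.09, edgeR adjusted p = 0.381). Pdia3, Pdia4 and Txndc5 lay between -0.04 and 0.03. Txndc5 shares 224 exon bases with Bmp6 on the opposite strand, which had 337 and 373 reads in DPPIV- and 1084 and 1153 in DPPIV+ FAPs, and whether strand was used in counting is not given in the sources used here.

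The collagen chaperones gave the largest decrease. Fkbp10, a lumenal prolyl isomerase that acts on procollagen, was measured at 235 and 256 CPM in DPPIV- and 159.8 and 178 CPM in DPPIV+ FAPs. The cell types were well separated in both mice, with log2 ratios of -0.55 and -0.53, and the fold was 0.687 (log2 -0.54, SE 0.067, edgeR adjusted p = 1.05e-14). Its call held with DESeq2 (adjusted p = 6.07e-07) and without mouse in the model (edgeR adjusted p = 0.0054). When DPPIV+ FAPs of mouse 1 were left out and mouse was also dropped, so that only the DPPIV- pair gave a spread, the log2 fold change was -0.47 (edgeR adjusted p = 0.0569). Fkbp10 shares 193 exon bases with Nt5c3b on the opposite strand, which had 438 and 405 reads in DPPIV- and 289 and 320 in DPPIV+ FAPs. Serpinh1, which encodes the procollagen chaperone HSP47, was the most abundant of the 36 genes, at 2844 and 2933 CPM in DPPIV- and 2531 and 2814 CPM in DPPIV+ FAPs. Both DPPIV+ values were the lower ones, but the difference did not pass the test (log2 -0.11, 95% interval -0.26 to 0.03, edgeR adjusted p = 0.268).

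The 3 sensors did not differ between the cell types beyond the spread. Ern1 was at 25.6 and 26.5 CPM in DPPIV- and 25.9 and 26.3 CPM in DPPIV+ FAPs, with the DPPIV+ values inside the DPPIV- range (log2 0.00, SE 0.094, edgeR adjusted p = 0.990). Eif2ak3 was at 81.4 and 95.2 CPM in DPPIV- and 80.2 and 88.5 CPM in DPPIV+ FAPs (log2 -0.07, SE 0.066, edgeR adjusted p = 0.510). Atf6 was at 85.8 and 86.9 CPM in DPPIV- and 81.2 and 88.2 CPM in DPPIV+ FAPs (log2 -0.03, SE 0.066, edgeR adjusted p = 0.783). The ranges of Eif2ak3 and Atf6 overlapped, and the 95% intervals of the 3 sensors stayed between -0.19 and 0.19. Read counts per gene do not show the phosphorylation, cleavage or mRNA splicing by which these sensors act.

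Of the 5 transcription factors, Ddit3 and Creb3l2 were lower in DPPIV+ FAPs. Ddit3 encodes CHOP, a factor of the PERK branch linked to cell death under prolonged stress, and was the least abundant of the genes tested. It was measured at 24.9 and 23.9 CPM in DPPIV- and 20.9 and 17.2 CPM in DPPIV+ FAPs. Both DPPIV+ values were below both DPPIV- values, with a log2 fold change of -0.36 (SE 0.10, edgeR adjusted p = 0.00224), but the call was lost with DESeq2 (adjusted p = 0.262) and without mouse in the model (edgeR, 0.0899). Ddit3 shares 68 exon bases with Mars on the opposite strand, which had 1016 and 1076 reads in DPPIV- and 819 and 1012 in DPPIV+ FAPs. Creb3l2, a membrane-bound factor of secretory cells, was at 139 and 128 CPM in DPPIV- and 120.3 and 116 CPM in DPPIV+ FAPs. The groups were separate by a small margin (log2 -0.18, SE 0.066, edgeR adjusted p = 0.0254), and the call was lost with DESeq2 (adjusted p = 0.394) and without mouse in the model (edgeR, 0.196). Its relative Creb3l1 had a log2 fold change of -0.03.

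Xbp1, the target of IRE1, was at 213 and 193 CPM in DPPIV- and 194 and 170.2 CPM in DPPIV+ FAPs. It was lower in DPPIV+ FAPs of each mouse, whereas the ranges of the cell types overlapped, and it lay just outside the threshold (log2 -0.16, SE 0.067, edgeR adjusted p = 0.0528). Xbp1 passed the threshold with upper-quartile scaling (adjusted p = 0.0114) and with robust moderation (0.0355), and not with DESeq2 (0.412). Atf4, the effector of the PERK branch, was at 263 and 285 CPM in DPPIV- and 242 and 265 CPM in DPPIV+ FAPs, with overlapping ranges (log2 -0.11, SE 0.067, edgeR adjusted p = 0.207). The summed level of the 8 sensors and factors was 1062 and 1079 CPM in DPPIV- and 984 and 1013 CPM in DPPIV+ FAPs, with log2 ratios of -0.11 and -0.09.

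In ER-associated degradation, which returns misfolded proteins to the cytosol, Edem1 was higher and Herpud1 lower in DPPIV+ FAPs. Edem1, which helps to mark misfolded glycoproteins by trimming their mannose, was at 98.6 and 91.1 CPM in DPPIV- and 111 and 103 CPM in DPPIV+ FAPs. The groups did not overlap and the log2 ratios of the mice were 0.16 and 0.18 (log2 fold change 0.17, SE 0.066, edgeR adjusted p = 0.0296), and the call was lost with DESeq2 (adjusted p = 0.441) and without mouse in the model (edgeR, 0.221). Herpud1, a membrane component of the Hrd1 ubiquitin ligase complex, was at 146 and 116 CPM in DPPIV- and 121 and 99.2 CPM in DPPIV+ FAPs. Within each mouse the DPPIV+ library was lower, but mouse 2 was lower than mouse 1 in both cell types and the ranges overlapped (log2 -0.25, SE 0.066, edgeR adjusted p = 0.000758). Herpud1 was not called by DESeq2 (adjusted p = 0.121) or without mouse in the model (edgeR, 0.283).

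The ligase itself, Syvn1, and its adaptor Sel1l did not pass the test. Sel1l was at 223 and 218 CPM in DPPIV- and 231 and 256 CPM in DPPIV+ FAPs, without overlap (log2 0.14, edgeR adjusted p = 0.0980). Syvn1 was at 68.8 and 65.5 CPM in DPPIV- and 68.7 and 58.5 CPM in DPPIV+ FAPs (log2 -0.08, edgeR adjusted p = 0.401). Derl3, a member of the derlin family of retrotranslocation proteins, had 22 and 20 reads in DPPIV- and 14 and 12 reads in DPPIV+ FAPs, above the floor of 3 reads but under the filter.

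Translocation and vesicle export showed no call among the 5 genes in edgeR or in DESeq2, also at an unadjusted p under 0.05. Sec61b, a subunit of the translocon, and Ssr1, a subunit of the translocon-associated complex, had log2 fold changes of 0.03 and -0.03. The COPII genes were at 0.09 for Sar1b, the GTPase that starts coat assembly, 0.09 for the inner coat gene Sec23a, and -0.09 for the cargo adaptor Sec24d. Their 95% intervals reached from -0.22 to 0.28.

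**Figure D2:**
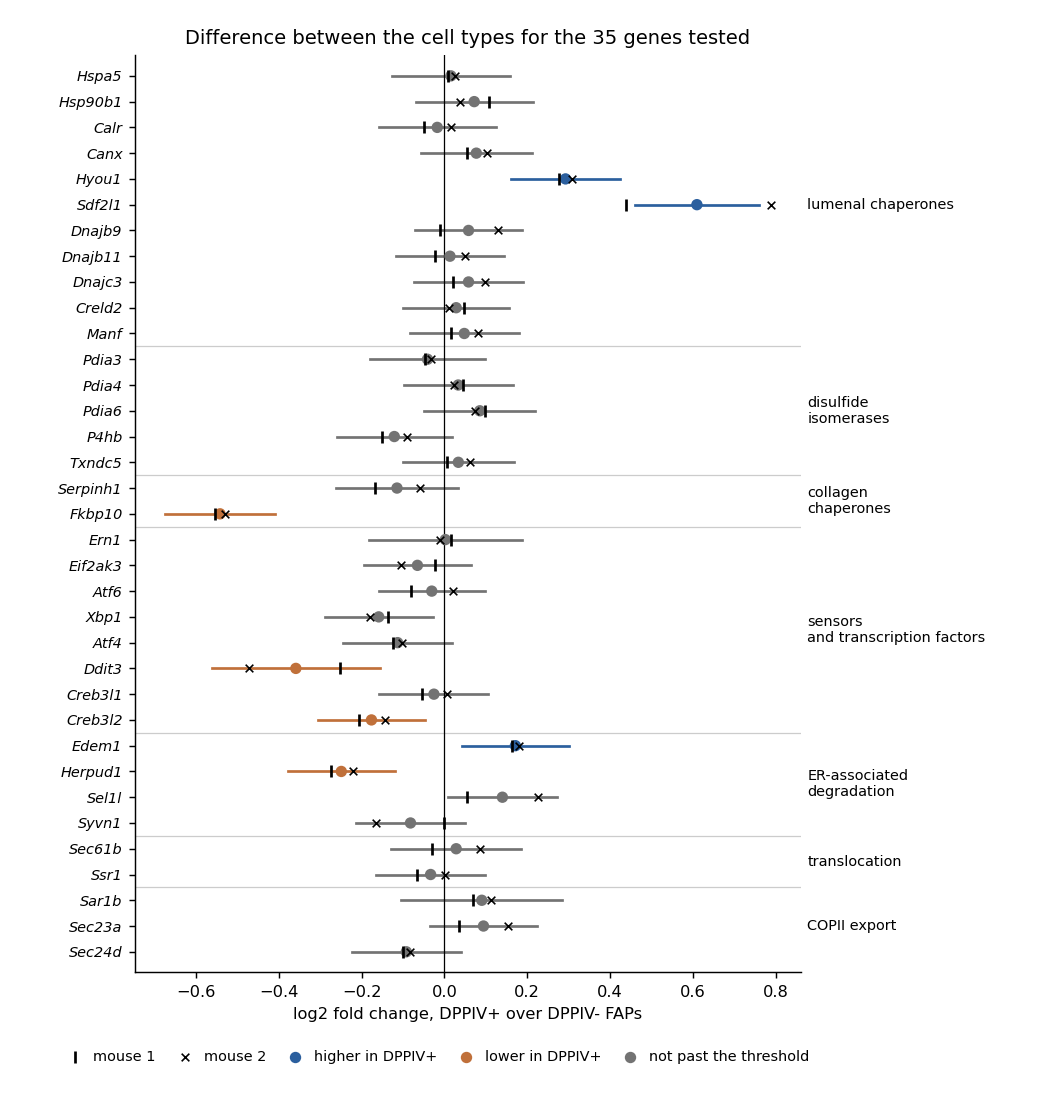
Log2 fold change (DPPIV+ over DPPIV- FAPs) of the 35 genes tested, as a dot with its 95% interval, with the ratio in mouse 1 as a bar and in mouse 2 as a cross. Sdf2l1 (0.61) and Fkbp10 (-0.54) stand apart, and the 28 grey genes lie between -0.16 and 0.14.

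Across the 35 genes, the log2 ratio had the same sign in both mice for 27, and over all genes tested for 72.9%. The 7 genes called were among the 27, which the call nearly sets in advance, since ratios of opposite sign bring the fitted change towards 0. The libraries of the cell types did not overlap for 14 of the 35 (40.0%, with DPPIV+ above for 8 and DPPIV- above for 6), beside 56.3% of all genes. Called genes with a change of at least 0.5 were 2 of 35, beside 17.1% of all genes. Of the 9 genes with ERSE letters, 8 were tested, and their log2 fold changes lay between -0.08 and 0.09. The count called among them was 0 in edgeR, 0 in DESeq2 and 0 at an unadjusted p under 0.05 with either tool, beside 33.0% of all genes called in edgeR and 16.6% in DESeq2. Sdf2l1 and Herpud1, whose upstream bases are printed above, moved in opposite directions.

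The mice were compared in the same model. Creld2 (log2 0.31, edgeR adjusted p = 0.000121) and Hyou1 (0.24, 0.00678) were higher in mouse 2 and Herpud1 was lower in it (-0.31, 0.000104). These 3 of 35 (8.57%) stood beside 8.98% of all genes. DESeq2 called 0 for mouse, with 3 at an unadjusted p under 0.05. Its share over all genes is not given here, so this 0 is not read as a trait of the ER genes. Creld2 was at 88.3 CPM in DPPIV- and 91.1 CPM in DPPIV+ FAPs of mouse 1 and at 110.5 and 111 CPM in those of mouse 2, a step between animals and not between cell types.

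Heat shock and immediate early genes, which respond to the handling of dissociated tissue among other stimuli, were called more often than the ER genes. The heat shock genes were cytosolic, except for Hspd1 and Hspe1, which encode mitochondrial chaperones. Of the 18 heat shock and immediate early genes, 14 were lower in DPPIV+ FAPs and 0 higher in edgeR (1 higher at an unadjusted p under 0.05). This is 77.8%, beside 33.0% of all genes tested. DESeq2 called 7 lower and 0 higher, beside 16.6% of all genes called. Between mice, 10 were lower and 2 higher in mouse 2 in edgeR (66.7%, beside 8.98% of all genes). Hspa1a, the inducible cytosolic HSP70, was at 979 and 435 CPM in DPPIV- and 752 and 336 CPM in DPPIV+ FAPs. Its gap between mice was wider than that between cell types, and its log2 fold change between cell types was -0.38 (edgeR adjusted p = 4.55e-07). Without mouse in the model 3 of the 18 were called, and the count over all genes in that fit is given in the last section. The part of this stress in the 7 differences among the ER genes was not tested.

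**Figure D3:**
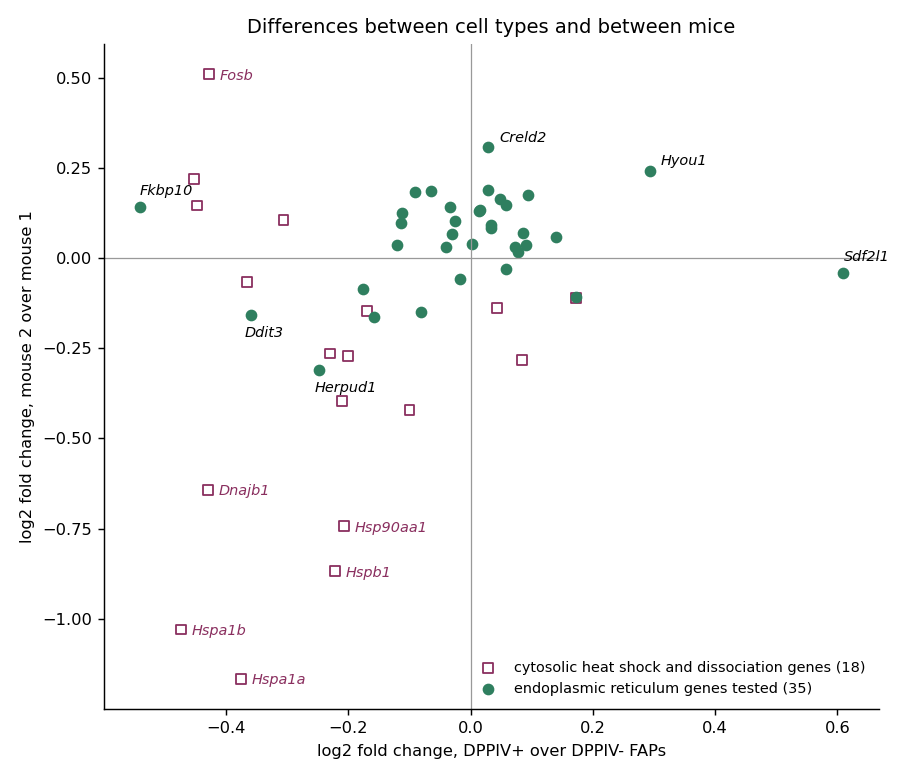
Log2 fold change between cell types (x axis, DPPIV+ over DPPIV-) against that between mice (y axis, mouse 2 over mouse 1) for the 35 ER genes (green circles) and 18 heat shock and dissociation genes (open squares). On the x axis 33 of the 35 ER genes lie within 0.5 of 0, all but Sdf2l1 and Fkbp10. Hspa1a also lies within 0.5 of 0 on that axis, at -0.38, and at -1.17 on the y axis.

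The rest of the secretory pathway was read from 5 further lists of 148 listed genes, of which 144 were tested. In edgeR 10 were higher and 22 lower in DPPIV+ FAPs (22.2% called, beside 33.0% of all genes tested), with 3 and 5 in DESeq2 (beside 16.6% of all genes called) and 10 called in all without mouse in the model. Among 36 other chaperones and isomerases, 0 were higher (2 at an unadjusted p under 0.05) and 7 were lower (19.4% called). DESeq2 called 0 higher and 4 lower. Their median log2 fold change was -0.11. The largest decreases were of Uggt2 (log2 -0.54, edgeR adjusted p = 1.76e-06), a glucosyltransferase that senses glycoprotein folding, Crtap (-0.34, 1.52e-06), a subunit of the collagen prolyl 3-hydroxylase complex, and Fkbp7 (-0.34, 1.64e-06), a prolyl isomerase. P3h1, the catalytic partner of Crtap, was at 151 and 162 CPM in DPPIV- and 121 and 140.1 CPM in DPPIV+ FAPs (-0.27, 0.000277). Ppib, of the same complex, did not pass the test (-0.12, edgeR adjusted p = 0.167). The calls of Uggt2, Crtap and Fkbp7 held with DESeq2 and without mouse in the model, whereas that of P3h1 was lost in both (adjusted p = 0.0703 and 0.111).

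In the list of other stress signalling genes and targets, 3 were higher and 2 lower of 21 in edgeR. This is 23.8%, beside 33.0% of all genes tested. The counts were 1 and 1 in DESeq2 (beside 16.6% of all genes called), and 0 and 1 without mouse in the model. Ppp1r15b, a phosphatase subunit that reverses the PERK signal, rose (log2 0.29, edgeR adjusted p = 5.03e-05), as did Atf3 (0.30, 6.96e-05), an immediate early factor, and Eif2ak2 (0.20, 0.0386), the kinase activated by double-stranded RNA. Ddit4, an inhibitor of mTORC1 signalling, was at 66.7 and 79.7 CPM in DPPIV- and 38.7 and 51.5 CPM in DPPIV+ FAPs (-0.71, 8.72e-23), and Sesn2, a stress-induced regulator of the same pathway, fell by 0.61 on the log2 scale (0.0165). Both Ddit4 libraries of DPPIV+ FAPs were below both of DPPIV- FAPs, and its call held with DESeq2 and without mouse in the model. DESeq2 did not call Ppp1r15b (adjusted p = 0.0528), Eif2ak2 (0.559) or Sesn2 (0.377). Atf3 was at 477 and 425 CPM in DPPIV- and 649 and 474 CPM in DPPIV+ FAPs, with overlapping ranges, and was also lower in mouse 2 than in mouse 1 (log2 -0.31, edgeR adjusted p = 0.000255).

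Of 22 other degradation genes, 2 were higher and 1 lower in edgeR (13.6%, beside 33.0% of all genes tested). In DESeq2 1 was higher and 0 lower, beside 16.6% of all genes called, and without mouse in the model 1 and 0. Edem2, which carries out an early mannose trimming step and is a relative of Edem1, was at 45.7 and 41.0 CPM in DPPIV- and 90.0 and 95.1 CPM in DPPIV+ FAPs. The groups were far apart (log2 1.09, SE 0.069, edgeR adjusted p = 5.85e-55), the widest difference among the genes tested in the 5 lists. Nploc4, a cofactor of the p97 segregase, rose (0.23, 0.00597), and Vimp, a selenoprotein of the retrotranslocation complex, fell by 0.21 on the log2 scale (0.00478), both in edgeR only (DESeq2 adjusted p = 0.357 and 0.318).

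For translocation and glycosylation, 2 of 33 were higher and 8 lower in edgeR (30.3%, beside 33.0% of all genes tested). DESeq2 called 0 of them (4 at an unadjusted p under 0.05), beside 16.6% of all genes, and the fit without mouse 0 and 1. The oligosaccharyltransferase genes Magt1 (log2 0.23, edgeR adjusted p = 0.00188) and Rpn2 (0.23, 0.00404) rose, whereas Stt3a of the same complex fell (-0.22, 0.00552). The signal peptidase gene Sec11a (-0.30, 4.98e-05) and the signal recognition particle genes Srp54a (-0.79, 0.0150) and Srp19 (-0.24, 0.0437) fell, Srp54a from levels of only 2.72 and 3.21 CPM. For COPII and cargo genes, 3 of 32 were higher and 4 lower in edgeR (21.9%, with the same 33.0% over all genes). The counts were 1 and 0 in DESeq2, and 2 and 0 without mouse in the model. Ergic1 (0.31, 1.73e-05), of the compartment between ER and Golgi, and the coat genes Sec24c (0.28, 0.000124) and Sec24b (0.20, 0.00855) rose, whereas Sec22b (-0.26, 0.000359), a fusion protein of this step, Mcfd2 (-0.26, 0.000414), a cargo receptor subunit, and Tmed9 (-0.21, 0.00575), a p24 cargo receptor, fell. Of these, only Ergic1 was called by DESeq2 (adjusted p = 0.00855).

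**Figure D4:**
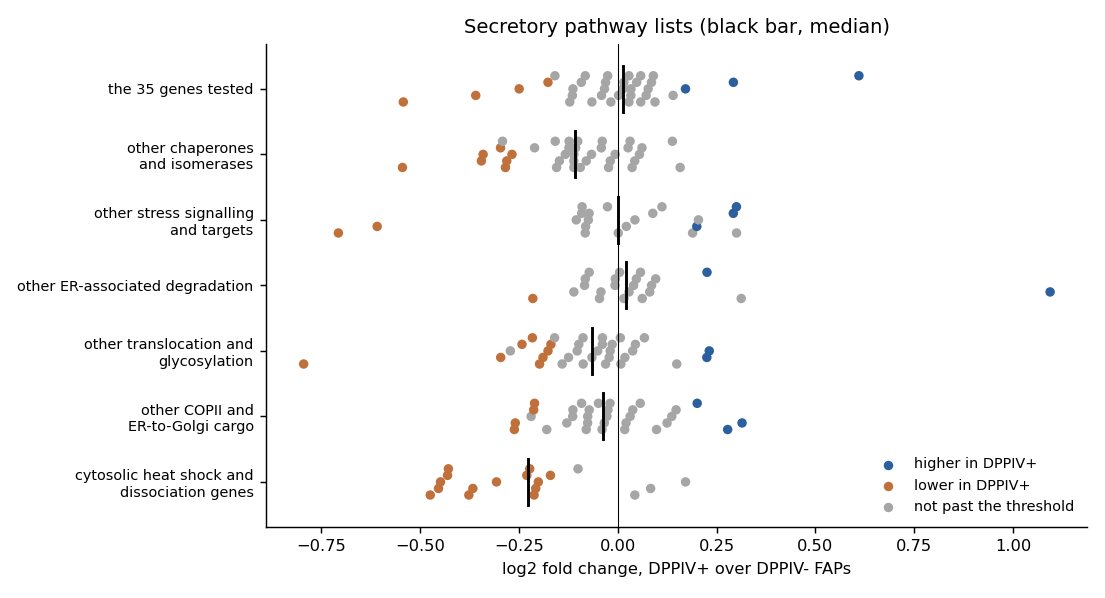
Log2 fold change (DPPIV+ over DPPIV- FAPs) of each gene tested in the ER list, 5 further secretory pathway lists and the list of heat shock and dissociation genes, 1 dot per gene, coloured by the edgeR call, with the median as a black bar. The median is 0.01 for the ER genes, -0.11 for other chaperones and isomerases and -0.23 for the heat shock list.

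Markers of other cells were read in the same libraries. Over all genes tested, 15.9% were higher and 17.2% lower in DPPIV+ FAPs in edgeR, and 7.97% and 8.59% in DESeq2. Plasma cells, which carry an extended ER, could be assessed by 4 listed markers, and Jchain and Tnfrsf17 had 0 reads in all libraries while Mzb1 was at or under 0.051 CPM. Sdc1, which is not restricted to plasma cells, was at 61.2 and 56.3 CPM in DPPIV- and 21.4 and 25.2 CPM in DPPIV+ FAPs. Tenocyte markers, for cells that also secrete much collagen, were higher in DPPIV+ FAPs for 4 of 4, with sums of 196 and 294 CPM in DPPIV- and 747 and 1547 CPM in DPPIV+ FAPs. Fmod made up most of these sums, at 167 and 259 CPM in DPPIV- and 688 and 1442 CPM in DPPIV+ FAPs. Tnmd was at 26.7 and 30.9 CPM in DPPIV- and 52.9 and 89.4 CPM in DPPIV+ FAPs (log2 1.27, edgeR adjusted p = 3.42e-61). The highest levels of Scx and Mkx were 7.83 and 7.67 CPM. Mural cell markers were lower for 5 of 6 in edgeR and for 3 (Cspg4, Notch3 and Kcnj8) in DESeq2. Their sums were 121 and 123 CPM in DPPIV- and 51.1 and 63.4 CPM in DPPIV+ FAPs. Cspg4 was the largest part of these sums, at 63.3 and 75.8 CPM in DPPIV- and 22.6 and 35.9 CPM in DPPIV+ FAPs. Macrophage markers were lower for 2 of 5 tested in edgeR (Adgre1 and Csf1r) and for 0 in DESeq2, with sums of 46.0 to 76.9 CPM over the 4 libraries. Of 4 endothelial markers, Pecam1, Cdh5 and Kdr were lower in edgeR, 0 of them in DESeq2, and the ratios of Pecam1 and Kdr were not below 0 in mouse 2, whereas Tek was higher with both tools. The part of these cells in the ER differences was not tested.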

How the data were processed

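Bulk RNA sequencing of sorted FAPs was analysed from the table the authors deposited, which holds raw counts per gene symbol with no normalization. Per the labels, reads were demultiplexed with bcl2fastq 2.20 and aligned with STAR to mm10, and Bowtie is also listed; the strand setting and annotation of the counting are not given in the sources used here. The labels name a stranded mRNA kit that differs from the kit in the study's methods.

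The filter was 2 CPM in 2 or more libraries. Counts were scaled by TMM and fitted with edgeR 4.0.16 (limma 3.58.1, R 4.3.3) on mouse and cell type, by the quasi-likelihood F test without robust moderation, two-sided, with Benjamini-Hochberg adjustment over every gene that passed and calls at 0.05. Since edgeR estimated infinite prior degrees of freedom, the spread of a gene was that of its abundance trend. Standard errors are the size of the log2 fold change over the square root of F, and 95% intervals span 1.96 of them. Log2 ratios per mouse used a prior count of 0.125. DESeq2 1.42.0, the tool of the study, was an alternative. The labels give 1 library of each cell type to each mouse, so libraries were paired by mouse, and the mouse differences in both cell types had a correlation of 0.440 across genes. With 2 mice, p-values rest on that spread. The fits were tested on simulated data.

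The genes, lists and alternatives were chosen with earlier results of these data known. The ERSE-II search, the GC content and length offsets and the comparison with abundant genes were added after seeing the data. Values in every library are printed for the members called, the sensors and their effectors, and examples of the other members. Of each other list the genes named are up to 3 with the largest and 3 with the smallest log2 fold change among those called with the same sign in both mice, mostly by fold change and adjusted p. Other genes given as examples, P3h1 among them, were chosen after their values were seen. Positions and exon overlaps are from GENCODE M21 (GRCm38), transcript lengths from its longest transcript, and promoter windows from RefSeq (GRCm38.p6). Python 3.11.15, numpy 2.4.6, pandas 2.3.3 and matplotlib 3.10.9 were used. Protein sequences were not analysed here.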

Additional observations from a re-analysis of the deposited data

How the results depend on the processing

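Of the 7 genes called, 7 remained with RLE scaling, the stricter filter of 2 CPM in at least 3 libraries and robust moderation, 6 with upper-quartile scaling (without Edem1), with no filter (without Creb3l2) and with GC content and length offsets (without Creb3l2, with Sel1l gained). DESeq2 kept 2 higher and 1 lower, and the fit with no replicate block for mouse 1 higher (Sdf2l1) and 1 lower (Fkbp10). Against a 1.5-fold change 0 were higher and 0 lower, with 0 at an unadjusted p under 0.05, beside 9.42% of all genes. Leaving out 1 library, which also drops mouse from the model and takes the lone library to vary like the other cell type, gave 1 to 2 higher and 0 to 2 lower, and 0 to 3 lower in place of 7 among the other chaperones and isomerases. Sdf2l1 was called in each of these fits, Fkbp10 in all but the fit without DPPIV+ FAPs of mouse 1, and Hyou1 and Herpud1 only without DPPIV- FAPs of mouse 2. No member called changed sign in any fit. Genes called over the whole table numbered 3826, and 1918 with DESeq2, 2120 with no replicate block, 1092 against a 1.5-fold change and 1364 to 2139 with 1 library left out. The members' median log2 fold change of 0.014 turned to -0.029 with upper-quartile scaling, was 0.045 with GC content and length offsets, and ranged from -0.054 to 0.070 with 1 library or mouse left out. Members that differed between mice were 3 in edgeR, beside 8.98% of all genes, and 0 with DESeq2, whose share over all genes is not given here. The mean log2 ratio of the summed level was -0.024, and -0.060 with no scaling. The cause of these shifts was not tested. With 2 mice, leaving out 1 of them gives values with no test. GC content and length were known for 11205 of the genes kept (96.7%).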
